A study of Homo sapiens and Mus musculus with 20 samples.

Results

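Mitochondrial DNA encodes 7 subunits of respiratory complex I, named ND, and 3 subunits of cytochrome c oxidase, complex IV, named CO. These 10 genes, MT-ND1, MT-ND2, MT-ND3, MT-ND4, MT-ND4L, MT-ND5, MT-ND6, MT-CO1, MT-CO2 and MT-CO3, were taken by symbol from the tables of IMR90 cells, and their mouse counterparts, written mt-Nd1 to mt-Co3, from the tables of gastrocnemius muscle. All 10 were listed in every library, among 16683, 16417 and 12013 listed genes in the A485, MS-275 and pyruvate experiments in IMR90 and among 10046 and 9255 in the MS-275 and NALA experiments in muscle. All 10 passed the filter on low values in each of the 5 comparisons.

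Bulk RNA-seq was available for 20 libraries in 10 groups of 2, all labelled wild type. IMR90, a line of human fetal lung fibroblasts, was treated with A485, which inhibits the acetyltransferase p300, and compared with Control2. It was treated with MS-275, which inhibits class I histone deacetylases, and compared with Control3, and with pyruvate and compared with Control6. The study describes the cells given pyruvate as senescent. Gastrocnemius muscle of C57BL/6 mice came from 11-month-old females given MS-275 into the muscle at 20 mg per kg for 7 days, set against Control4, and from 20-month-old mice given NALA, sodium lactate, for 7 days, set against Control5. The controls are labelled as untreated, and the labels do not say whether 2 libraries of a group came from separate cultures or animals, so the p-values measure the spread between these libraries, which may be technical. Depth, as the sum over listed genes, was 24179065 to 46971227 reads in IMR90 libraries and 10836858 to 14190054 in muscle.

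The mitochondrial genome is a small circle transcribed from both strands. A dedicated RNA polymerase, POLRMT, works with the factors TFAM and TFB2M to make long precursor RNAs, which are cut mainly at the tRNA genes between the messages. The levels of the single mRNAs then depend on their processing and decay, so genes of the same precursor can differ in level. In complex I, ND2, ND4 and ND5 are the large proton-pumping subunits of the membrane arm, ND1 lies where that arm meets the quinone site, and ND3, ND4L and ND6 are small membrane subunits between them. In complex IV, CO1 and CO2 hold the heme and copper centres that pass electrons to oxygen, and CO3 is the third core subunit. Skeletal muscle and other tissues with a high demand for ATP are rich in these transcripts.

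Neighbouring genes of this genome touch or overlap, which bears on how reads are assigned. In the hg38 sequence MT-ND4L and MT-ND4 share 7 bases, shown in capitals at chrM:10740-10786.

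MT-ND4L/MT-ND4: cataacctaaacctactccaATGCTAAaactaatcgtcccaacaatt

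MT-ND5 (chrM 12337 to 14148) lies on the plus strand and MT-ND6 (chrM 14149 to 14673) on the minus strand, with no base between them. MT-ND6 is the 1 member annotated on the minus strand. The junction at chrM:14119-14178 of hg38, read on the plus strand, has the bases of MT-ND6 in capitals.

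MT-ND5/MT-ND6: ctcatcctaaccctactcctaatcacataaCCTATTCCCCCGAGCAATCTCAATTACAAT

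In the mouse the same genes overlap by 14 bases, in capitals at chrM:13532-13565 of mm10.

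mt-Nd5/mt-Nd6: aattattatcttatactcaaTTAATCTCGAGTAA

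The strand setting used in counting is not given in the sources used here. Without strand, reads of the plus-strand precursor across MT-ND6 and reads of MT-ND6 itself cannot be told apart, and the same holds at the overlaps.

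Mouse members also have copies in the nuclear genome. The mm10 annotation holds 7 pseudogenes on chromosome 1 between 24611535 and 24616197 that copy a stretch of mitochondrial DNA, and 0 of the 7 are listed in the muscle tables. The start of mt-Nd3 (chrM:9459-9518) is shown above the minus strand of its copy Gm28438 (chr1:24613060-24613119), with the base that differs in capitals.

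mt-Nd3: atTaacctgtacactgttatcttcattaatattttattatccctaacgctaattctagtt

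Gm28438: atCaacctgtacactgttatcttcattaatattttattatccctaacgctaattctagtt

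This substitution, T3C counted from the first base of mt-Nd3, was the 1 difference over the 345 bases aligned. For mt-Nd4l (chrM:9877-9936) and its copy Gm10222 (chr1:24612641-24612700, minus strand) the 294 bases aligned did not differ, and their first bases read as follows.

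mt-Nd4l: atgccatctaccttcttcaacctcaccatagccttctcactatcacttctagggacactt

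Gm10222: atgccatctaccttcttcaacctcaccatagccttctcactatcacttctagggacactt

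Similarly, mt-Co2 and Gm28661 did not differ over 681 bases, nor mt-Co3 and Gm28437 over 783. In the mouse only annotated transcripts were searched, and an identical copy in a nuclear transcript was found for 99.8% of the 150-base windows of mt-Co3, 99.4% of mt-Co2, 98.0% of mt-Nd4l and 97.0% of mt-Nd3, 150 bases being the read length. The share was 59.2% for mt-Nd4 and 23.6% for mt-Co1, and 0% for mt-Nd1, mt-Nd2, mt-Nd5 and mt-Nd6. In the human genome, searched whole, it was 15.7% for MT-ND2, 14.5% for MT-CO1 and 1.12% for MT-ND1, all on chromosome 1, and 0% for the other 7 members.

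**Figure D1:**
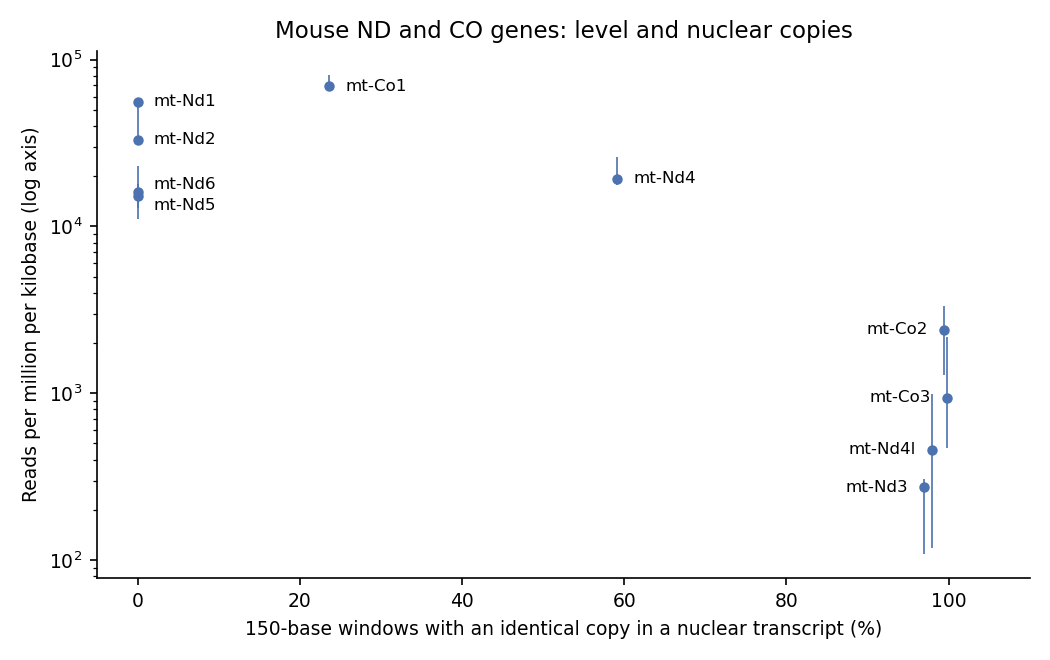
Share of 150-base windows of each mouse member that have an identical copy in an annotated nuclear transcript (x axis, percent) against its level in the 4 control muscle libraries (y axis, RPM per kilobase, log scale; points are medians, bars run from the lowest to the highest library). The 4 members copied over at least 97.0% of their windows have medians of 274 to 2396 and the other 6 medians of 15143 to 69009.

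Levels between genes were compared as RPM, reads per 1000000 listed reads, divided by the length of the gene in kilobases. In the 6 control IMR90 libraries MT-CO1 had the highest median, 9335 (range 5982 to 13380), followed by MT-CO3 with 6087 and MT-CO2 with 5138. MT-ND4 followed with 4390, and the remaining ND genes lay between MT-ND4L, 2164, and MT-ND3, 1339. The ranges of each gene and the next in this order overlapped, so no neighbouring pair was separated by the spread between libraries.

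In the 4 control muscle libraries the levels per kilobase were higher for 6 members and lower for the other 4, on a scale set within each library. The median was 69009 for mt-Co1 (66065 to 81155), 55981 for mt-Nd1, 33180 for mt-Nd2, 19323 for mt-Nd4, 16122 for mt-Nd6 and 15143 for mt-Nd5. It was 2396 for mt-Co2, 942 for mt-Co3, 460 for mt-Nd4l and 274 for mt-Nd3. These last 4 are the members with near-complete nuclear copies, and in IMR90 cells MT-CO2 and MT-CO3 stood above every ND gene by median. The part of the copies in the low muscle values was not tested. The ranges of neighbours did not overlap between mt-Co1 and mt-Nd1, between mt-Nd2 and mt-Nd4, and between mt-Nd5 and mt-Co2, while the other neighbours overlapped.

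The 10 genes together took a few percent of reads in IMR90 cells and a far larger part in muscle. In Control2 their share was 3.27% and 4.10% and after A485 it was 4.26% and 5.55%. In Control3 it was 3.04% and 2.00% and after MS-275 3.30% and 2.71%. In Control6 it was 5.54% in both libraries and after pyruvate 3.54% and 3.56%. Only the MS-275 libraries and their controls overlapped in IMR90. In muscle, Control4 had 30.7% and 24.7% and the MS-275 libraries 16.9% and 16.8%. Control5 had 24.9% and 25.9% and the NALA libraries 26.8% and 28.2%. Thus all libraries after MS-275 in muscle and after pyruvate lay below their controls, and all after A485 and NALA above.

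As means, the share was 3.68% ± 0.588 in Control2 and 4.91% ± 0.913 after A485 (SD, n = 2, as for all means here), 1.33 times as high. After pyruvate it was 3.55% ± 0.0102 against 5.54% ± 0.00196, a ratio of 0.641. After MS-275 in muscle it was 16.8% ± 0.117 against 27.7% ± 4.28, a ratio of 0.608, and after NALA 27.5% ± 0.990 against 25.4% ± 0.699. The exact permutation test gave a two-sided p of 0.333 in these 4 comparisons, the smallest that 2 libraries against 2 allow, so a p under 0.05 was out of reach. For MS-275 in IMR90 the means were 3.0% ± 0.417 and 2.52% ± 0.739, with an exact permutation p of 0.667, and without Control3 replicate 2 the share was lower after MS-275 (log2 ratio -0.02). In bulk samples, fewer cells of a type and less RNA per cell cannot be told apart, and a share also moves with all other genes.

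**Figure D2:**
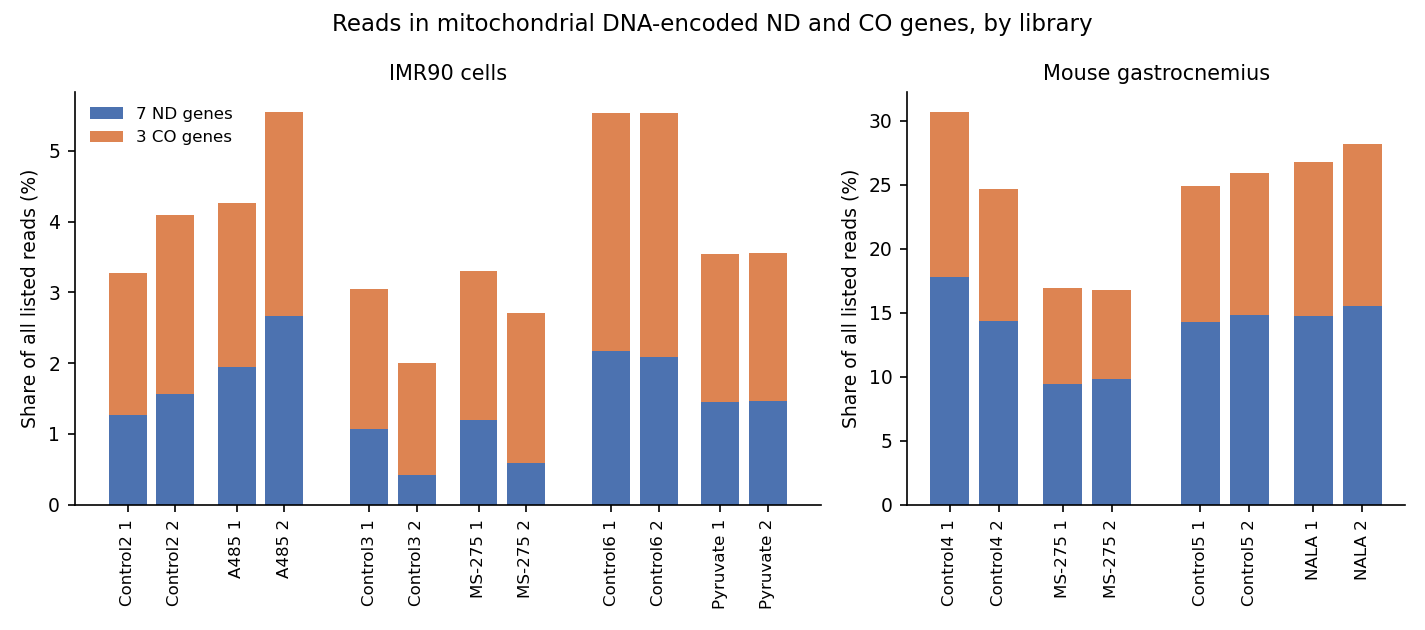
Share of all listed reads (y axis, percent) taken by the 7 ND and 3 CO genes in each library, stacked, with IMR90 and muscle on separate scales. Control6 sits at 5.54% and the pyruvate libraries at 3.54% and 3.56%, and the MS-275 muscle libraries at 16.9% and 16.8%, below 30.7% and 24.7% in Control4.

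Both classes took part in these shares. After pyruvate the ND genes had 1.46% of reads in each library against 2.17% and 2.09%, and the CO genes 2.09% and 2.10% against 3.37% and 3.45%. After MS-275 in muscle the ND genes had 9.39% and 9.82% against 17.8% and 14.3%, and the CO genes 7.53% and 6.93% against 12.9% and 10.4%. In each of these sets the treated libraries lay below both controls.

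Single genes were tested on the deposited values, which are read counts divided by a DESeq2 size factor per library, by limma on log2(value + 1) with Benjamini-Hochberg adjustment over all genes tested. Limma draws the spread of each gene toward that of genes of like intensity, so its SE is not the replicate spread of that gene alone. Calls needed an adjusted p below 0.05 and a log2 fold change beyond 1 in either direction. Levels are given in RPM, which no size factor enters. Since size factors and library totals gave different scales, fold changes are also given with equal library totals where that changed a call or a direction.

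**Figure D3:**
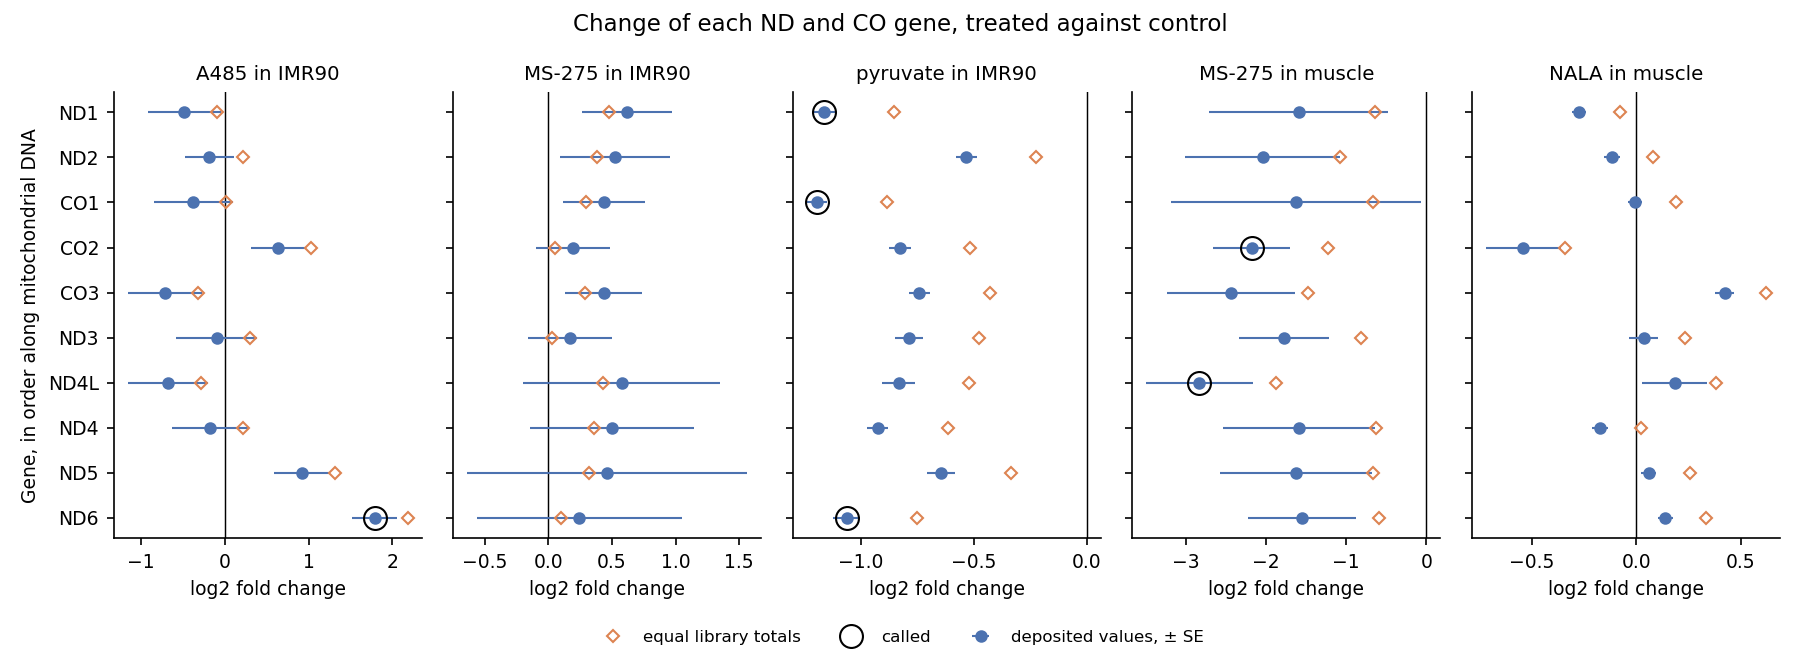
Log2 fold change of each member, treated over control, in the 5 comparisons (x axis; filled circles with SE bars are deposited values, open diamonds equal library totals, a black ring marks a called member; y axis, genes in mitochondrial order; x axes differ). All 10 members lie below 0 after pyruvate and after MS-275 in muscle, and MT-ND6 lies at 1.79 after A485.

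A485 was compared with Control2 to see how these genes respond when p300, which the study treats as a writer of histone lactylation, is inhibited. The minus-strand gene MT-ND6 rose and was the 1 member called. MT-ND6 had 674 and 818 RPM in Control2 and 3915 and 2892 RPM after A485. The treated libraries stood far above the controls, 4.56 times as high in the mean. The log2 fold change was 1.79 ± 0.264 (SE), with an adjusted p of 0.0127 (limma). Of all genes tested, 3.31% were called higher and 10.4% in either direction.

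MT-ND5, the plus-strand neighbour of MT-ND6 and the largest proton-pumping subunit, had 2873 and 3418 RPM in Control2 and 7251 and 8343 RPM after A485. MT-CO2 (chrM 7586 to 8269), which receives electrons from cytochrome c, had 3289 and 3740 RPM in Control2 and 8305 and 6146 RPM after A485. In both genes the treated libraries lay above both controls, but the test did not call them. The log2 fold change of MT-ND5 was 0.92 ± 0.327 (SE, adjusted p 0.122, limma) and that of MT-CO2 was 0.63 ± 0.321 (SE, adjusted p 0.243, limma). The other 7 members overlapped between the groups. MT-CO1 had 12733 and 16057 RPM against 12051 and 17507 RPM, and MT-ND4L had 608 and 677 RPM against 325 and 852 RPM. Thus 3 of 10 members did not overlap and were higher, beside 50.3% of all genes tested.

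**Figure D4:**
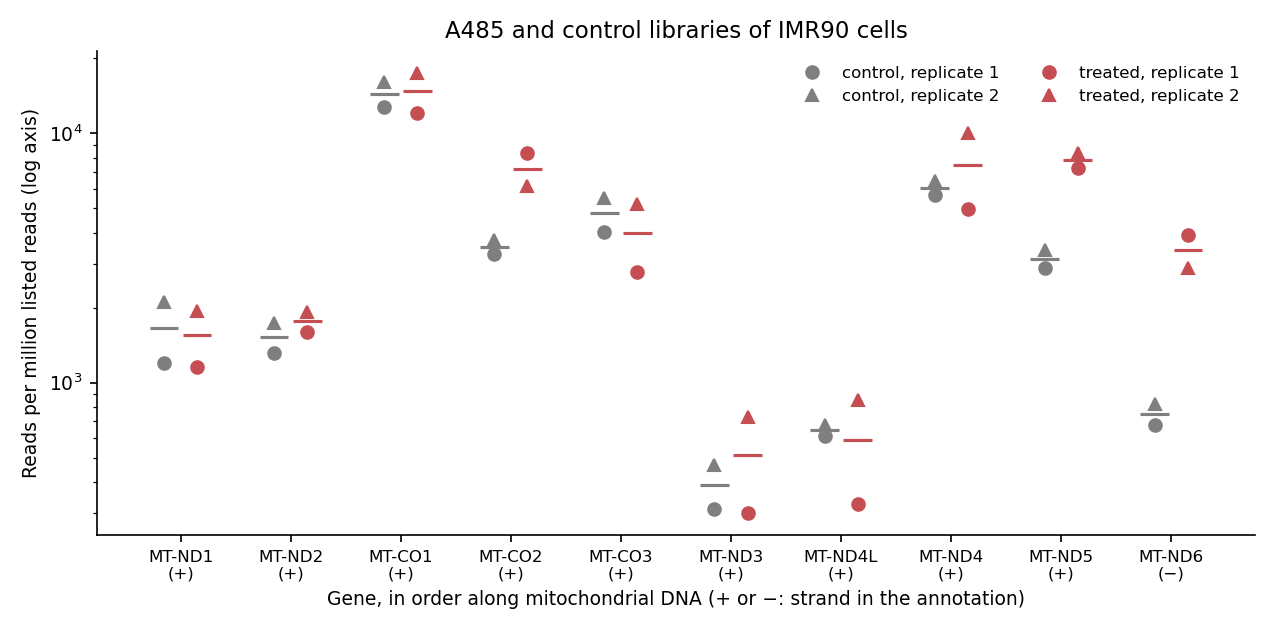
Level of each member in the A485 experiment (y axis, RPM, log scale; x axis, gene with its annotated strand; circles and triangles are replicates 1 and 2, grey Control2, red A485, lines the means). MT-ND6, MT-ND5 and MT-CO2 have both red points above both grey points, and the other 7 members overlap.

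The rise of MT-ND6 was also seen against other members within the same library, where no scaling enters. The ratio of MT-ND6 to MT-CO1 reads was 0.0529 and 0.0509 in Control2 and 0.325 and 0.165 after A485. Against its neighbour MT-ND5 it was 0.235 and 0.239 in Control2 and 0.540 and 0.347 after A485. The ratio of MT-ND4L to MT-ND4, which overlap, was 0.108 and 0.105 in Control2 and 0.0654 and 0.0852 after A485. None of these 3 ratios overlapped between the groups.

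Setting library totals equal moved the median log2 fold change over all genes from 0.01 to 0.40 and that of the members from -0.17 to 0.22. On this scale 3 members were called, MT-ND6 with 2.18 (adjusted p 0.00277), MT-ND5 with 1.31 (adjusted p 0.0167) and MT-CO2 with 1.03 (adjusted p 0.0392, limma), beside 10.4% of all genes called higher. The calls over all genes moved from 532 higher and 1135 lower to 1677 higher and 901 lower. The call of MT-ND6 was also made by edgeR (adjusted p 0.0120) and DESeq2 (adjusted p 4.43e-10) on recovered reads, where they called 3.32% and 4.76% of all genes higher. It was lost when a library was left out, with adjusted p 0.0906 without Control2 replicate 1, 0.118 without A485 replicate 1 and 0.0782 without A485 replicate 2 (limma). Its log2 fold change stayed between 1.57 and 2.00.

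Of the other mitochondrial genes, the tRNA gene MT-TP is also annotated on the minus strand. It had 23.6 and 21.6 RPM in Control2 and 59.3 and 50.6 RPM after A485. Its log2 fold change was 0.89 ± 0.173 (SE, adjusted p 0.0283, limma), below the fold needed for a call. MT-TP was not higher after A485 alone. It had 17.8 and 23.8 RPM in Control3 and 48.6 and 50.2 RPM after MS-275 in IMR90 (1.41 ± 0.326, SE, adjusted p 0.270, limma), where MT-ND6 overlapped between the groups. MT-RNR1, a ribosomal RNA, had 374 and 630 RPM in Control2 and 881 and 876 RPM after A485, with a log2 fold change of 0.46 (adjusted p 0.375, limma). MT-CYB, the complex III subunit, measured -0.06 (adjusted p 0.927), MT-ATP6 -0.56 (adjusted p 0.464) and MT-ATP8 -0.84 (adjusted p 0.323, limma), the last 2 being subunits of ATP synthase. MT-RNR2 measured 0.07 (adjusted p 0.919). The fibroblast markers took 3.39% and 3.55% of reads in Control2 and 1.43% and 1.59% after A485, and 7 of the 10 were called lower. Their part in the values of the members was not tested.

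MS-275 was compared with Control3 in IMR90 to see how the same genes respond to inhibition of class I HDACs. All 10 members had log2 fold changes above 0, from 0.17 (MT-ND3) to 0.62 (MT-ND1), with a median of 0.45 against -0.01 over all genes. None was called, and neither was any other gene, so that the background was 0% in either direction. At an unadjusted p under 0.05 there were 0 members and 1730 of 15883 genes (limma), and no count test was run. With equal library totals the members' median was 0.31, and that of all genes was -0.15. The result depended on pairing, since same-numbered libraries deviated alike (correlation 0.728), though the labels name no shared batch. With a replicate block in the fit, the members' adjusted p ran from 0.00051 (MT-ND1) to 0.244 (MT-CO2, limma) at the same fold changes. No member was called with the block, beside 13.7% of all genes.

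In 3 of 10 members both treated libraries lay above both controls, beside 15.3% of all genes. MT-ND1 had 978 and 634 RPM in Control3 and 1195 and 1003 RPM after MS-275. MT-CO1 had 12725 and 9224 RPM in Control3 and 13890 and 12736 RPM after MS-275. MT-CO3 had 3874 and 3864 RPM in Control3 and 4227 and 5304 RPM after MS-275. The gaps between the groups were small beside the spread within Control3 for MT-ND1 and MT-CO1, and for MT-CO3 the gap was below the spread between the MS-275 libraries.

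The replicates of this experiment differed by gene more than in the other IMR90 experiments. MT-ND5 had 2239 and 357 RPM in Control3 and 2241 and 556 RPM after MS-275. MT-ND6 had 543 and 157 RPM in Control3 and 538 and 182 RPM after MS-275. MT-ND4L had 541 and 152 RPM in Control3 and 613 and 244 RPM after MS-275. In each of these genes replicate 2 was the lower library in both groups, whereas MT-ND3 had 364 and 462 RPM in Control3 and 365 and 476 RPM after MS-275.

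The ratio of replicate 2 to replicate 1 varied along the genome in both directions. In Control3 it was 1.27 for MT-RNR1, 0.844 for MT-RNR2, 0.648 for MT-ND1, 0.560 for MT-ND2, 0.725 for MT-CO1, 0.879 for MT-CO2, 0.509 for MT-ATP8 and 0.568 for MT-ATP6. Further along it was 0.997 for MT-CO3, 1.27 for MT-ND3, 0.280 for MT-ND4L, 0.366 for MT-ND4, 0.160 for MT-ND5, 0.289 for MT-ND6 and 0.620 for MT-CYB. After MS-275 the genes from MT-RNR1 to MT-ND3 had 0.650 (MT-ND2) to 1.32 (MT-RNR1), those from MT-ND4L to MT-ND6 had 0.398, 0.463, 0.248 and 0.339, and MT-CYB had 0.753. The 4 genes from MT-ND4L to MT-ND6 thus had the 4 lowest ratios in both groups. Over the 10 members the ratios ranged from 0.837 to 1.14 in Control6, from 0.960 to 1.02 after pyruvate, from 1.11 to 1.75 in Control2 and from 0.739 to 2.62 after A485. The fibroblast markers also had less of the reads in replicate 2 of both groups, 2.13% against 3.39% in Control3 and 1.55% against 2.80% after MS-275, and their part was not tested.

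**Figure D5:**
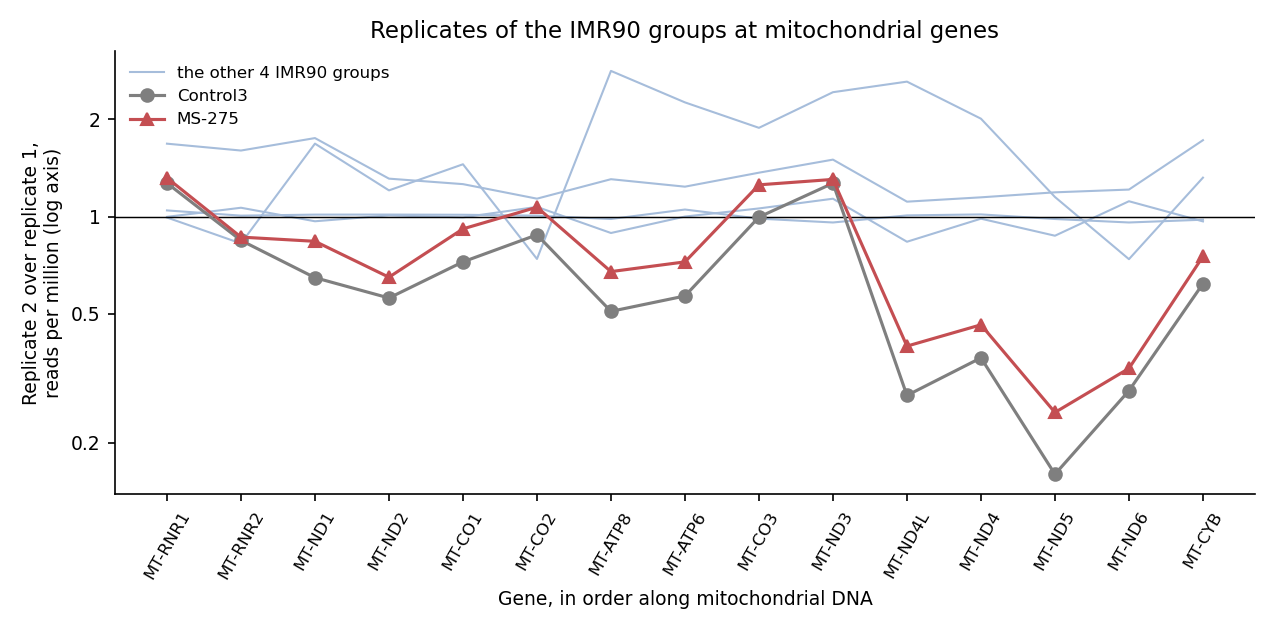
RPM in replicate 2 over replicate 1 (y axis, log scale) for 15 mitochondrial genes in genome order (x axis), with Control3 and MS-275 set against the other 4 IMR90 groups. In Control3 and MS-275 the points from MT-ND4L to MT-ND6 lie between 0.160 and 0.463.

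Pyruvate was compared with Control6. All 10 members fell, each with an adjusted p under 0.05 (limma), in a comparison where 40.2% of all genes tested fell at any fold. The log2 fold changes ran from -1.20 to -0.53, with a median of -0.83 against -0.01 over all genes. Of the 10, 3 were called lower, beside 23.1% of all genes called lower and 54.1% in either direction. In all 10 the treated libraries lay below both controls in RPM, as did 38.0% of all genes.

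MT-CO1 (chrM 5904 to 7445), the catalytic subunit of complex IV, had 20632 and 20532 RPM in Control6 and 11068 and 11220 RPM after pyruvate. Its log2 fold change was -1.20 ± 0.0443 (SE, adjusted p 9.95e-10, limma). MT-ND1 (chrM 3307 to 4262) had 2908 and 2814 RPM in Control6 and 1572 and 1595 RPM after pyruvate. In both genes the spread between replicates was small beside the gap between groups. The log2 fold change of MT-ND1 was -1.16 ± 0.0478 (SE, adjusted p 1.98e-09, limma). MT-ND6 had 1212 and 1352 RPM in Control6 and 775 and 744 RPM after pyruvate, with -1.06 ± 0.0592 (SE, adjusted p 1.83e-08, limma). Without Control6 replicate 2 it measured -0.99, short of the fold needed for a call. Thus MT-ND6, called higher after A485, was called lower here.

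The other 7 members fell by less than the fold needed for a call. MT-ND4, a proton-pumping subunit, had 8933 and 8807 RPM in Control6 and 5742 and 5836 RPM after pyruvate (log2 fold change -0.93 ± 0.0452, SE). MT-CO2 (-0.83), MT-ND4L (-0.83), MT-ND3 (-0.79) and MT-CO3 (-0.74) followed. MT-ND5 (-0.65) and MT-ND2 (-0.53) moved least. MT-ND2 had 1832 and 1849 RPM in Control6 and 1565 and 1589 RPM after pyruvate.

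Because the members moved by different amounts, their ratios moved too. The ratio of MT-CO3 to MT-CO1 reads was 0.361 and 0.384 in Control6 and 0.518 and 0.503 after pyruvate. That of MT-ND5 to MT-CO1 was 0.216 and 0.189 in Control6 and 0.301 and 0.292 after pyruvate. MT-CO1 was thus lower relative to both genes in each treated library.

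When library totals were set equal, all genes had a median of 0.30 and the members one of -0.52, with a range from -0.89 to -0.22. All 10 members still fell (adjusted p at most 0.00107, limma), but none passed the fold needed for a call, beside 14.5% of all genes called lower.

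The ribosomal RNAs of the same genome did not move with the members. MT-RNR2 had 1744 and 1859 RPM in Control6 and 3861 and 3890 RPM after pyruvate. It rose by a log2 fold change of 0.80 ± 0.0489 (SE, adjusted p 4.17e-08, limma) and 1.11 with equal library totals. MT-RNR1 had 1314 and 1312 RPM in Control6 and 1426 and 1491 RPM after pyruvate, and its direction depended on the scale, -0.16 (adjusted p 0.0111) on deposited values and 0.15 (adjusted p 0.0154) with equal totals. The remaining protein genes fell like the members, MT-ATP6 with -0.90 (adjusted p 1.30e-08), MT-ATP8 with -0.73 (adjusted p 7.54e-07) and MT-CYB with -0.50 (adjusted p 1.68e-06, limma). The minus-strand tRNA gene MT-TP fell by 1.03 on the log2 scale (adjusted p 1.32e-06, limma).

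MS-275 was compared with Control4 in muscle, where the study injected the inhibitor to lower histone lactylation. All 10 members had log2 fold changes below 0, from -2.83 to -1.55, with a median of -1.70 against 0.01 over all genes. The test called 2 of them lower, mt-Nd4l and mt-Co2, beside 6.97% of all genes called lower, 9.24% called higher and 16.2% in either direction. In RPM, 8 of 10 members lay below both controls in both treated libraries, beside 8.63% of all genes. In the same libraries fibro-adipogenic markers took 0.0167% and 0.0361% of reads in Control4 and 0.397% and 0.527% after MS-275. Of these markers 2 of 8 were listed, and Pdgfra, Col1a1 and Dcn were not. The list took 0.0801% and 0.0763% in Control5 and 0.0483% and 0.0469% after NALA. Names of nuclear genes in muscle went against the tissue, as given below, so the list cannot be read as a cell type. The part of these markers in the values of the members was not tested.

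mt-Nd4l (mm10 chrM 9877 to 10173), a small complex I subunit, had 122 and 35.1 RPM in Control4 and 14.2 and 22.2 RPM after MS-275. Its log2 fold change was -2.83 ± 0.664 (SE, adjusted p 0.0375, limma). mt-Co2 (chrM 7013 to 7696) had 2292 and 1076 RPM in Control4 and 672 and 677 RPM after MS-275, with -2.18 ± 0.483 (SE, adjusted p 0.0327, limma). Both are members with near-complete nuclear copies, and in both Control4 replicate 1 stood far above replicate 2. Among the 6 members without such copies 0 were called, with a median log2 fold change of -1.61.

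The abundant members lay below both controls but were not called by limma. mt-Co1, the most abundant, had 125385 and 102071 RPM in Control4 and 74435 and 68257 RPM after MS-275 (log2 fold change -1.62 ± 1.56, SE, adjusted p 0.498). mt-Nd1 had 52065 and 41289 RPM in Control4 and 27771 and 32133 RPM after MS-275 (-1.59 ± 1.11, SE, adjusted p 0.351). mt-Nd2 had 44999 and 32763 RPM in Control4 and 18975 and 17376 RPM after MS-275 (-2.04 ± 0.966, SE, adjusted p 0.191). Standard errors of the most abundant genes were wide in this fit, and they depended on the scale. With equal library totals mt-Co1 measured -0.67 ± 0.339 (SE, adjusted p 0.159, limma). The missing calls of these genes therefore do not rest on their own replicate spread alone.

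Of the large proton-pumping subunits, mt-Nd4 had 35772 and 27366 RPM in Control4 and 20415 and 20080 RPM after MS-275. mt-Nd5 had 32819 and 30984 RPM in Control4 and 19718 and 20563 RPM after MS-275. mt-Nd6 had 11882 and 10661 RPM in Control4 and 6946 and 8048 RPM after MS-275. In all 3 the treated libraries stood clear of the controls, although the adjusted p ranged from 0.158 for mt-Nd6 to 0.284 for mt-Nd4 (limma). The 2 members that overlapped were mt-Co3, with 1699 and 370 RPM against 210 and 387 RPM, and mt-Nd3, with 107 and 37.9 RPM against 60.6 and 21.5 RPM.

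The scale mattered here. With equal totals of genes outside mitochondrial DNA, the median log2 fold change over all genes was 0.704. The part of the members' large share of reads in these shifts was not tested. When library totals were set equal, all genes had a median of 0.97 and the members one of -0.74, and all 10 stayed below 0 (-1.88 to -0.59). On this scale 3 members were called lower, mt-Nd4l with -1.88 (adjusted p 0.0411), mt-Co2 with -1.22 (adjusted p 0.0369) and mt-Nd2 with -1.08 (adjusted p 0.0338, limma), beside 1.90% of all genes called lower. The calls over all genes moved from 877 higher and 662 lower to 2882 higher and 185 lower. The count of members called also depended on the tool and on single libraries. On recovered reads, DESeq2 called all 10 lower (adjusted p 3.76e-07 to 0.00701), beside 8.27% of all genes, and edgeR 2, beside 5.94%. Without Control4 replicate 1, MS-275 replicate 1 or MS-275 replicate 2 limma called 0, and without Control4 replicate 2 it called 4.

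Of the other mitochondrial genes, mt-Atp6 fell by 2.62 on the log2 scale (adjusted p 0.0231) and mt-Atp8 by 2.41 (adjusted p 0.0117, limma). mt-Atp6 has an identical copy in a nuclear transcript for 99.4% of its windows and mt-Atp8 for 0%, with only annotated transcripts searched. mt-Atp8 (chrM 7766 to 7969) lies between mt-Co2 and mt-Co3, whose copies are in the same block on chromosome 1. A copy of mt-Atp8 outside annotated transcripts was not searched for, so the 0% does not show that it has none. The level of mt-Atp8 was low, with means of 221 RPM per kilobase in Control4 and 69.4 in Control5. mt-Cytb had 69758 and 55991 RPM in Control4 and 42012 and 45600 RPM after MS-275 and was not called (-1.47, adjusted p 0.448). mt-Rnr1 measured -0.90 (adjusted p 0.311) and mt-Rnr2 -1.15 (adjusted p 0.230), and both overlapped between the groups in RPM.

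NALA was compared with Control5 to see how these genes respond to added lactate in old muscle. No member was called, beside 3.35% of all genes, and edgeR and DESeq2 on recovered reads called 0 as well, beside 3.40% and 2.22% of all genes. At an unadjusted p under 0.05 there were 6 members and 2373 of 8895 genes. The members' median log2 fold change was 0.01, as was that of all genes, with a range from -0.54 to 0.42.

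Without a fold minimum, 2 members rose and 4 fell on deposited values, beside 6.32% of all genes that rose and 9.06% that fell. With equal library totals 5 rose, mt-Co1, mt-Co3, mt-Nd3, mt-Nd5 and mt-Nd6, and 0 fell, beside 19.0% and 3.82% of all genes (limma). mt-Co3 had 765 and 712 RPM in Control5 and 1158 and 1110 RPM after NALA, a log2 fold change of 0.42 ± 0.0436 (SE, adjusted p 1.28e-08, limma). mt-Nd6 had 5768 and 6073 RPM in Control5 and 7317 and 7628 RPM after NALA, with 0.14 ± 0.0372 (SE, adjusted p 0.00917, limma). mt-Nd1 had 55082 and 56315 RPM in Control5 and 51731 and 53953 RPM after NALA, with -0.27 ± 0.0340 (SE, adjusted p 4.29e-07) on deposited values and -0.08 (adjusted p 0.113, limma) with equal totals. For these 3 genes the groups did not overlap, while mt-Co3 is again a member with a near-complete copy.

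mt-Co2 had 880 and 2202 RPM in Control5 and 1060 and 1137 RPM after NALA, with -0.54 ± 0.180 (SE, adjusted p 0.0392) on deposited values and -0.34 (adjusted p 0.248, limma) with equal totals. Its groups overlapped, and Control5 replicate 2 stood apart from the other 3 libraries. Without Control5 replicate 1 mt-Co2 measured -1.20 and was called (adjusted p 1.24e-14, limma). mt-Nd4 (-0.17, adjusted p 0.00134) and mt-Nd2 (-0.12, adjusted p 0.0286, limma) fell by little on deposited values. When library totals were set equal, all genes had a median of 0.20, and mt-Nd2, mt-Nd4 and mt-Co1 changed sign, to 0.08, 0.02 and 0.19. mt-Co1 had 105271 and 107967 RPM in Control5 and 118406 and 124890 RPM after NALA. In RPM, 5 members were higher without overlap, beside 48.0% of all genes, and 1 was lower, beside 12.6%. On deposited values ribosomal RNAs and mt-Cytb stayed within 0.14 of 0 on the log2 scale, and mt-Cytb (-0.14, adjusted p 0.0117, limma) was the 1 with an adjusted p under 0.05. With equal library totals mt-Rnr2 measured 0.20 (adjusted p 0.000514, limma). On that scale mt-Rnr1 and mt-Cytb changed sign, to 0.08 (adjusted p 0.192) and 0.06 (adjusted p 0.252, limma).

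Whether the effects of 2 treatments differed was tested by contrasting both effects in 1 limma fit of 8 libraries. No control library was shared, and the fit used 1 spread per gene over both experiments. Replicates differed more in some experiments than in others, by the chi-square per gene between them. It was 402 and 458 in Control3 and MS-275 in IMR90, against 13.8 and 4.54 in Control6 and pyruvate. In muscle it was 69.5 and 108 in Control4 and MS-275, against 3.86 and 4.97 in Control5 and NALA. The p-values of these contrasts may therefore be too small. A485 and pyruvate differed for 3 members, beside 65.4% of all genes. The difference in log2 fold change, A485 minus pyruvate, was 2.85 for MT-ND6 (adjusted p 4.61e-05), 1.56 for MT-ND5 (adjusted p 0.00285) and 1.46 for MT-CO2 (adjusted p 0.00369). These are the 3 members whose A485 libraries lay above both controls. MS-275 and pyruvate in IMR90 differed for 5 members, beside 41.1% of all genes, from 0.95 for MT-ND3 (adjusted p 0.0422) to 1.78 for MT-ND1 (adjusted p 0.00799, limma). With equal library totals this count was 2, MT-ND1 and MT-CO1, beside 42.2% of all genes. It was 1 without either Control6 or either pyruvate library. The count for A485 and pyruvate was 5 without Control2 replicate 2 and 7 without A485 replicate 1.

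A485 and MS-275 in IMR90 were compared in the same way. Limma found 0 members that differed at an adjusted p under 0.05, beside 3.91% of all genes. The difference for MT-ND6, 1.54 ± 0.931 (SE), had an adjusted p of 0.458. In muscle, MS-275 and NALA differed for 1 member, mt-Nd4l, by -3.01 ± 0.865 (SE, adjusted p 0.0413, limma), beside 20.2% of all genes. With equal library totals mt-Nd4l passed the threshold no longer (adjusted p 0.0646), and mt-Nd2 (adjusted p 0.0211), mt-Nd5 (adjusted p 0.0226) and mt-Nd6 (adjusted p 0.0167, limma) passed it, beside 24.9% of all genes. The count in muscle was 0 without Control4 replicate 1 or any single library of the NALA experiment, and 3, 7 and 8 without Control4 replicate 2, MS-275 replicate 1 and MS-275 replicate 2.

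Nuclear genes serve the mitochondrial genome and complete both complexes, and 7 lists of them were described in IMR90 cells. After A485 few of them were called on deposited values. LIG3, the ligase that seals mitochondrial DNA, was the 1 of 14 replication genes called (-1.37, adjusted p 0.0186), and PPRC1, a coactivator of the PGC-1 family, the 1 of 11 biogenesis genes (-1.30, adjusted p 0.0295). COX17, the copper chaperone of complex IV, was the 1 of 31 assembly genes called (1.02, adjusted p 0.0364, limma). Called higher were 3.31% and lower 7.06% of all genes. With equal library totals LIG3 measured -0.98 and PPRC1 -0.90, both short of the fold needed for a call, and COX17 1.41. On that scale the biogenesis gene GABPA went from 0.99 to 1.38, FASTKD1 from 0.89 to 1.28 and NDUFC2 from 0.85 to 1.24.

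The lists of transcription (11 genes), RNA processing (26), complex I subunits (34) and complex IV subunits (12) had no limma call after A485. At an unadjusted p under 0.05 they had 5, 1, 2 and 2 genes, beside 30.8% of all genes. edgeR called none in these lists, and DESeq2 called 1 complex IV gene. The smallest p-values in them were those of TFB2M (-0.67, adjusted p 0.0893) and MTERF2 (0.99, adjusted p 0.118) for transcription, FASTKD1 (0.89, adjusted p 0.0423) and REXO2 (-0.35, adjusted p 0.209) for processing, NDUFC2 (0.85, adjusted p 0.0401) and NDUFB5 (0.62, adjusted p 0.0923) for complex I, and COX7A1 (1.28, adjusted p 0.0631) and COX7B (0.63, adjusted p 0.0762, limma) for complex IV. The median over complex I subunits was 0.16, as over complex IV subunits, against 0.01 over all genes.

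After MS-275 in IMR90 the 7 lists had no call, and at an unadjusted p under 0.05 they held 1 transcription gene, 2 replication genes and 1 biogenesis gene, beside 10.9% of all genes. TFB1M, a mitochondrial rRNA methyltransferase, measured 1.28 (adjusted p 0.387) and PPARGC1A, the coactivator PGC-1 alpha, 3.27 (adjusted p 0.368, limma). LIG3 measured -1.11 (adjusted p 0.360) and the nuclease and helicase DNA2 -2.25 (adjusted p 0.372, limma). The median was -0.03 over complex I subunits and 0.12 over complex IV subunits, against 0.45 for the mitochondrial members.

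After pyruvate, genes of every list were called, in both directions in all but the complex IV list. Among 26 RNA processing genes 13 were called higher and 4 lower, beside 31.0% of all genes called higher and 23.1% lower. LRPPRC, which stabilises mitochondrial mRNAs, rose from 157 ± 38.8 to 1360 ± 127 on the deposited scale (log2 fold change 3.13, adjusted p 1.70e-08, limma). The rise started from a low value, since the mean of LRPPRC was 5987 in Control2 and 4644 in Control3. Each experiment was scaled on its own, and this difference between controls was not tested. FASTKD1 (3.38) and FASTKD2 (3.36), RNA-binding proteins of mitochondria, had the largest rises. FASTK (-1.35), RPUSD3 (-1.29) and HSD17B10 (-1.17), a subunit of mitochondrial RNase P, had the largest falls.

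Of 10 transcription genes 2 were called higher and 1 lower after pyruvate. Of all genes 31.0% were called higher and 23.1% lower, which stands beside each list of this paragraph. TFB2M rose from 39.6 ± 2.32 to 328 ± 19.8 (3.02, adjusted p 4.31e-07) and TFAM from 47.0 ± 11.3 to 276 ± 19.6 (2.55, adjusted p 3.72e-06), while the polymerase POLRMT fell from 1217 ± 2.60 to 486 ± 14.0 (-1.32, adjusted p 3.04e-07, limma). In Control2 and Control3, each scaled on its own, the means were 889 and 843 for TFB2M and 1301 and 1200 for TFAM. Both genes thus rose from low Control6 values, whereas POLRMT had 1587 and 1273 there. Of 14 replication genes 5 were higher, among them PRIMPOL (2.69), DNA2 (2.59) and the nuclease MGME1 (1.39), and TK2 was lower (-1.55). Of 8 biogenesis genes 4 were higher, among them GABPB1 (2.71) and GABPA (1.96), both parts of the factor NRF-2, and NFE2L2 (1.33), and the receptor ESRRA was lower (-1.56).

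Among nuclear subunits of the complexes, more were called lower than higher after pyruvate. Beside these lists and the assembly genes, 23.1% of all genes were called lower and 31.0% higher. Of 33 complex I subunits 13 were called lower and 3 higher, with a median of -0.93 against -0.83 for the 10 mitochondrial members. NDUFA2 (-1.61), NDUFB2 (-1.53) and NDUFS7 (-1.51) had the largest falls and NDUFA5 (1.54), NDUFS1 (1.44) and NDUFA12 were the 3 called higher. Of 12 complex IV subunits 6 were called lower and 0 higher, with a median of -0.90. COX7A1, the muscle and heart isoform, fell from 685 ± 121 to 45.6 ± 3.38 (-3.87, adjusted p 1.77e-08, limma), and COX6A1 (-1.42) and COX8A followed. Of 29 assembly genes 7 were higher, among them TMEM126B (2.25), NUBPL (2.23) and NDUFAF4 (1.58), and 4 lower, among them COX14 (-2.24), SURF1 (-1.44) and COA3 (-1.15). With equal totals the medians of both complexes stayed below 0, at -0.62 and -0.59, while that of all genes was 0.30.

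Nuclear genes were not read in this way in muscle, because names of nuclear genes there went against the tissue. Acta1, the actin of skeletal muscle, was not listed in either table, Ckm had a mean of 45.0 and 17.8 and Myh4 a mean of 312 and 111, while Myh13, which lies near Myh4, had 841110 and 833974. Of 12 fast fibre markers 5 were listed, with 0.0201% to 0.0292% of reads. Slow fibre markers (4 of 9 listed) had 0.0249% and 0.0247% in Control5 and 0.0661% and 0.0598% after NALA, and their part in the values of the members was not tested. The other 8 lists of muscle cell types took 0% to 0.0480% of reads. The cause of the mismatch was not tested. In IMR90 all 10 fibroblast markers were listed, with 1.43% to 3.77% of reads, and 3 to 5 of 8 epithelial markers, with 0.00310% to 0.00889%.

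The genes whose share of reads most resembled that of the summed members over the 12 IMR90 libraries, centred within each experiment, were DOCK6, ECE1 and MFSD12. Their root mean square distance on the log2 scale was 0.0829, 0.0928 and 0.111, against a median of 0.586 over the 9753 genes ranked.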

How the data were processed

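Total RNA was sequenced as paired reads of 150 bases. The authors trimmed reads with Trim Galore (version 0.6.10), aligned them with HISAT2 (version 2.2.1) to hg38 or mm10, sorted them with SAMtools (version 1.7), counted them per gene with featureCounts (version 2.0.6) and divided the counts by DESeq2 (version 1.34.0) size factors. The deposited values are therefore a signal, counts per gene over 1 size factor per library. Annotation, strand setting and handling of reads with several matches are not given in the sources used here.

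Libraries were grouped by their titles, and each treatment was set against the control whose deposited gene list is identical to its own. Division by the value of 1 read gave whole reads within 0.01 in all 20 libraries, which set the depths. Count tests used them in the A485, muscle MS-275 and NALA experiments, since in the others the low values did not settle the step on their own. Replicates differed by more than sampling noise (chi-square per gene 3.86 to 458). Tests took genes whose mean over 4 libraries reached 10 and were made by limma (version 3.58.1) in R (version 4.3.3) on log2(value + 1), with an intensity trend and no covariate. This scale understates changes of low genes. Shares were compared by an exact permutation test, two-sided. The fits were tested on simulated data with 100 changed genes per comparison. At a log2 fold change of 1.5 they recovered 15% after A485, 0% after MS-275 in IMR90 and 68% after pyruvate. In muscle they recovered 0% after MS-275 and 59% after NALA. At 3 the shares were 52%, 0% and 85% in IMR90, and 28% and 89% in muscle. A missing call after MS-275 thus says little.

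Alternatives were pseudocounts of 0.1 and 10, no filter or a mean of at least 50, recomputed size factors, equal totals over all or over nuclear genes, quantile normalization, no trend, a replicate block, a fold minimum of 0.58 or none, a shared fit per organism, removal of length and GC trends, the count tests of edgeR (4.0.16) and DESeq2 (1.42.0), and each library left out. Counting the 6 mouse members without near-complete copies (under 90% of windows) apart, and crossing replicate numbers, were added after seeing the data.

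Same-numbered libraries of the 5 comparisons gave correlations of deviations of 0.316, 0.728, 0.00200, -0.110 and -0.0126 with 2 pairs each, and the labels name no shared batch, so numbers were not taken as pairs. Human coordinates and sequences came from the hg38 genome and GENCODE annotation, mouse ones from GENCODE transcripts of mm10. The text names all members in all comparisons, the other mitochondrial protein and rRNA genes, and per nuclear list at most the 3 largest called rises and falls, or the 2 smallest p-values where none was called. Of MS-275 lists only genes that the text turns on are given. The members and lists were chosen with earlier results of these data known. Python 3.11.15 was used with scipy 1.17.1, pandas 2.3.3, numpy 2.4.6 and matplotlib 3.10.9.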

Additional observations from a re-analysis of the deposited data

Results flagged for a closer look

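Effects of 2 treatments differed in the same cells or tissue for 9 members and pairs of treatments, by a limma contrast with Benjamini-Hochberg adjustment. The contrast shared 1 spread per gene over experiments whose replicates differed unequally, so its p-values may be too small. A485 minus pyruvate gave log2 differences of 2.85 for MT-ND6, 1.56 for MT-ND5 and 1.46 for MT-CO2 (adjusted p 4.61e-05 to 0.00369), beside 65.4% of all genes past the threshold. MS-275 minus pyruvate in IMR90 gave 1.78 for MT-ND1, 1.63 for MT-CO1, 1.17 for MT-CO3, 1.02 for MT-CO2 and 0.95 for MT-ND3 (adjusted p 0.00799 to 0.0422), beside 41.1% of all genes, and with equal library totals 2 of these 5, MT-ND1 and MT-CO1, passed. MS-275 minus NALA in muscle gave -3.01 for mt-Nd4l (adjusted p 0.0413), beside 20.2% of all genes. This gene of few reads has a near-complete nuclear copy, and with equal library totals it did not pass (adjusted p 0.0646).

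For 2 members both MS-275 libraries lay above both controls in IMR90 cells and below both controls in muscle, in RPM. Neither was called in either system, and in IMR90 the gaps between groups were small beside the spread within Control3. The log2 fold change in IMR90 minus that in muscle was 1.09 for MT-ND1 and 0.95 for MT-CO1. This difference between organisms was not tested.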

How the results depend on the processing

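The share of reads kept its direction in all 5 comparisons under the alternatives run, except without Control3 replicate 2. Leaving out 1 library at a time, its log2 ratio ranged from 0.21 to 0.59 for A485, from -0.020 to 0.59 for MS-275 in IMR90, from -0.64 to -0.64 for pyruvate, from -0.87 to -0.55 for MS-275 in muscle and from 0.08 to 0.15 for NALA. The count of members called ranged from 0 to 1 for A485, from 2 to 3 for pyruvate, from 0 to 4 for MS-275 in muscle and from 0 to 1 for NALA. The count of members whose effects differed ranged from 0 to 8 for MS-275 against NALA, from 0 to 0 for A485 against MS-275, from 3 to 7 for A485 against pyruvate and from 1 to 7 for MS-275 against pyruvate.

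Scaling moved the calls most often. After A485, 3 members were called with equal library totals, equal nuclear totals or quantile normalization, and 0 without the trend, with the shared fit, or with length and GC trends removed together with the replicate block. After pyruvate, 0 were called under those 3 scalings, 9 with a fold minimum of 0.58, 10 with none, and 6 with length and GC trends removed, with or without the replicate block. After MS-275 in muscle, 1 was called without the trend, 10 by DESeq2, 8 with the shared fit and 0 among the 6 members without near-complete copies. After NALA, 6 passed with no fold minimum. For the difference between MS-275 and NALA, 3 members passed with equal library or nuclear totals and 4 without the trend or by edgeR. For MS-275 against pyruvate, 2 passed with equal library or nuclear totals. Shares over all genes moved too. With equal library totals they were 16.0% for A485, 51.1% for pyruvate, 31.5% for MS-275 in muscle, and 24.9% and 42.2% for the 2 differences. DESeq2 called 8.27% lower after MS-275 in muscle. With no fold minimum, 40.2% fell after pyruvate, and 6.32% rose and 9.06% fell after NALA. For the other settings the shares are not given here, so those counts are not read as results about the members. The cause of these shifts was not tested.

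The replicate block called 1 member for A485 (15.5% of all genes called), 0 for MS-275 in IMR90 (13.7%) and 3 for pyruvate (54.2%). In muscle the block called 3 for MS-275 (16.4%) and 0 for NALA (3.50%). In MS-275 in IMR90 it called 2183 genes, though the libraries share only a number. With the block, 4 members differed between A485 and MS-275 (28.5% of all genes), 5 between A485 and pyruvate (68.1%), 10 between MS-275 and pyruvate (74.5%) and 1 between MS-275 and NALA (13.8%). Crossing the replicate numbers in the muscle MS-275 comparison, where deviations of same-numbered libraries correlated at -0.110, called 3 members and 1730 genes (18.2%).

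Directions of single members reversed under scaling. After A485, equal library totals gave MT-ND2 0.21, MT-ND3 0.30, MT-ND4 0.23 and MT-CO1 0.02. Equal nuclear totals gave 0.24, 0.32, 0.25 and 0.045 for the same genes. Quantile normalization gave MT-ND1 0.29, MT-ND2 0.62, MT-ND3 0.42, MT-ND4 0.62 and MT-CO1 0.21, edgeR gave MT-ND3 0.046 and DESeq2 0.023. In other comparisons quantile normalization gave -0.035 for MT-ND3 and -0.0600 for MT-CO2 (MS-275 in IMR90), 0.13 for MT-ND2 (pyruvate), 0.23 for mt-Co1 (MS-275 in muscle), and 0.22 for mt-Nd2 and 0.051 for mt-Nd4 (NALA). After NALA, equal library totals gave mt-Nd2 0.081, mt-Nd4 0.025 and mt-Co1 0.19, and equal nuclear totals 0.13, 0.074 and 0.24.

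Leaving out single libraries, the members that reversed after A485 were MT-ND1 (-0.96 to 0.0021), MT-ND2 (-0.45 to 0.092), MT-ND3 (-0.79 to 0.61), MT-ND4 (-0.73 to 0.40) and MT-ND4L (-1.43 to 0.075). After MS-275 in IMR90 they were MT-ND3 (-0.048 to 0.38), MT-ND4 (-0.23 to 1.23), MT-ND4L (-0.35 to 1.5), MT-ND5 (-0.87 to 1.79) and MT-ND6 (-0.66 to 1.14). After NALA they were mt-Nd3 (-0.057 to 0.13), mt-Nd4l (-0.29 to 0.66), mt-Co1 (-0.063 to 0.048) and mt-Co2 (-1.20 to 0.12). Of 680 values of single members under the other settings, 603 kept direction and call.

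Count tests were left out in the IMR90 MS-275 and pyruvate experiments, and so was the removal of GC trends in muscle. With 2 libraries a group, shares cannot pass 0.05. Spreads cover these libraries only.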
